A study of Mus musculus with 4 samples.

Results

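The genes that tie telomeres to the nuclear envelope in meiotic prophase were followed in testes of mice at postnatal day 14. The members were taken by function and not by their values: rows whose symbol was Terb1 (also written Ccdc79), Terb2, Majin, Sun1, Spdya, Cdk2, or Kash5 under that name or its older symbol Ccdc155. All 7 were found, each in 1 of the 55401 rows of every table, with Kash5 listed as Ccdc155. The libraries were made from poly(A) RNA of whole testes, 2 from Kctd19 knockouts (Kctd19-/-, ko) and 2 from Kctd19 heterozygotes (Kctd19+/-, het). Both groups were C57BL/6J and had no treatment, and the series text calls the replicates biological without saying whether testes were pooled. The comparison is therefore between loss of both copies and loss of 1 copy of Kctd19, with no wild type used here. Kctd19 codes for a spermatocyte protein that works with histone deacetylases, and the series asked how the testis transcriptome differs in the ko.

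In leptotene and zygotene spermatocytes, chromosome ends move to the inner nuclear membrane, where TERB1, TERB2 and MAJIN form a complex that joins the telomere to the membrane. SUN1 spans the inner membrane and KASH5 the outer one, and together they couple the telomeres to cytoplasmic dynein, whose pull moves chromosomes so that homologs can pair. SPDYA (Speedy A) binds and activates the kinase CDK2 at telomeres, and mice lacking SPDYA or CDK2 fail to keep telomeres attached. Sun1 and Cdk2 are expressed in many cell types, whereas the other members are known chiefly from germ cells.

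The depth in assigned reads was 19430364 and 14573566 in the ko libraries and 14638658 and 12155089 in the het libraries. Kctd19 itself stood at 12.8 and 15.6 FPKM (fragments for each kilobase of exon, scaled to library depth) in ko and at 29.7 and 18.2 FPKM in het, so its RNA was present in both ko libraries. Where the deletion lies within the gene is not stated in the labels, and FPKM over the whole gene cannot check it. A pair of libraries stood apart from the rest. The summed level of 8 pachytene spermatocyte markers was 109 and 110.4 FPKM in ko and 304 and 157 FPKM in het, so het replicate 1 was far above its fellow het library. In ko replicate 1 the summed level of 6 spermatid markers was 41.6 FPKM, against 3.24 to 5.88 FPKM in the other 3 libraries. Prm1 and Tnp1, which code for sperm chromatin proteins, were at 0 in het replicate 2. Fold changes of the members are also given without each library.

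The members lie on 7 different chromosomes in the GRCm38 build, and all are annotated as protein-coding. Terb1 (chromosome 8, 104446719 to 104509910, minus strand) ends 873 kb before the start of Kctd19 on the same chromosome. Terb2 (chromosome 2, 122186272 to 122206397, plus strand), Majin (chromosome 19, 6184388 to 6224225, plus strand) and Kash5 (chromosome 7, 45183624 to 45204892, minus strand) share no exon sequence with another annotated gene, nor does Terb1. Sun1 (chromosome 5, 139200637 to 139249840, plus strand) shares 302 of its 7596 exon bases with an antisense gene. Cdk2 (chromosome 10, 128697939 to 128705031, minus strand) shares 34 of 6219 with Pmel. Spdya (chromosome 17, 71552061 to 71589533, plus strand) has 2198 exon bases, of which 402 overlap Trmt61b on the opposite strand and 250 overlap the pseudogene Mettl4-ps1. Reads in the overlaps on opposite strands cannot be told apart, since no source used here says if counting was by strand. Mettl4-ps1 lies on the plus strand, as Spdya does, so counting by strand would not separate their reads either.

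All 7 genes were expressed and none passed the test between ko and het. All of them passed the filter of a mean of at least 1 FPKM, and limma on log2(FPKM + 1), with Benjamini-Hochberg adjustment over 17905 genes, called 0 of the 7 at an adjusted p under 0.05, in a comparison that called 0.218% of all genes tested. None was under 0.05 before adjustment in this fit either. Of the alternatives that kept all 4 libraries, voom on whole reads and limma on protein-coding genes only put Kash5 and Majin under it. Fits of the members that leave out 1 library have a single library in a group and are given as fold changes only. Log2 fold changes were below 0 in 6 members and above 0 in 1, Cdk2, with 47.9% of all genes tested below 0. The median was -0.14 over the members and 0.01 over all genes tested. Both ko libraries lay below both het libraries in 3 of the 7 (Terb2, Majin and Kash5), an arrangement seen in 19.7% of all genes tested. The groups overlapped in the other 4, as in 58.2% of all genes. In whole testis, fewer cells that express a gene and less RNA per cell cannot be told apart.

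**Figure D1:**
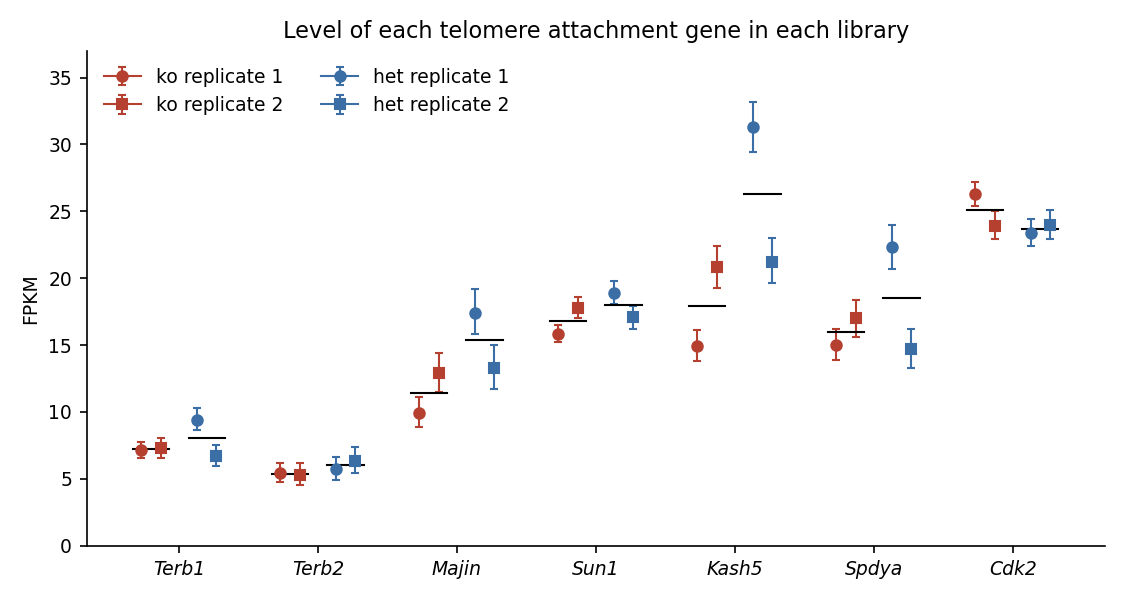
FPKM (vertical axis) of the 7 genes in each library, ko left of het within each gene. Bars on the points are 95% exact Poisson intervals of the reads and black lines are group means of 2 libraries; het replicate 1 is the highest point for 5 genes, up to 31.3 FPKM for Kash5.

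Of the membrane-tethering complex, Majin, its transmembrane subunit, had the largest difference between groups. Majin stood at 9.91 and 12.9 FPKM in ko and at 17.4 and 13.3 FPKM in het. The groups did not overlap, but ko replicate 2 and het replicate 2 were close, with counting intervals of 11.5 to 14.4 and 11.7 to 15.0 FPKM (95%, exact Poisson on 309 and 265 reads, counting error only). The means were 11.4 ± 2.13 FPKM in ko and 15.4 ± 2.94 FPKM in het (SD, n = 2 each). On the log2 scale the fold change was -0.40 (standard error 0.18, adjusted p = 0.588 by limma and Benjamini-Hochberg), and its 95% interval reached from a ko level of 0.55 times to 1.06 times that of het. It was -0.22 without ko replicate 1 and -0.21 without het replicate 1.

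Terb1 codes for the subunit that binds the telomere protein TRF1. It stood at 7.12 and 7.27 FPKM in ko and at 9.42 and 6.72 FPKM in het, so the ko libraries fell between the het libraries. The means were 7.20 ± 0.10 FPKM in ko and 8.07 ± 1.91 FPKM in het (SD, n = 2 each), with a log2 fold change of -0.13 (standard error 0.16, adjusted p = 0.834 by limma and Benjamini-Hochberg). Its sign rested on het replicate 1, and without that library the log2 fold change was 0.09.

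Terb2 codes for the subunit that bridges TERB1 and MAJIN. It was the lowest of the 7, at 5.43 and 5.32 FPKM in ko and 5.75 and 6.34 FPKM in het. These are few reads, 223 and 164 in ko and 178 and 163 in het. The ko libraries lay below the het libraries, but the counting intervals of all 4 overlapped, from 4.54 to 6.20 FPKM in ko replicate 2 to 5.40 to 7.39 FPKM in het replicate 2. Between the groups the log2 fold change was -0.14 (standard error 0.10, adjusted p = 0.693 by limma and Benjamini-Hochberg), with an interval on the fold scale of 0.76 to 1.08.

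Of the proteins that span the envelope, Kash5 differed most, both between groups and within them. Kash5, the outer membrane adaptor for dynein, stood at 14.9 and 20.8 FPKM in ko and at 31.3 and 21.2 FPKM in het. Here too ko replicate 2 and het replicate 2 were nearly level, with 718 and 610 reads and counting intervals of 19.3 to 22.4 and 19.6 to 23.0 FPKM. The lowest library was ko replicate 1 and the highest het replicate 1, and neither interval touched those of the other libraries. Means were 17.9 ± 4.17 FPKM in ko and 26.3 ± 7.12 FPKM in het (SD, n = 2 each). The log2 fold change of -0.52 (standard error 0.24) did not pass (adjusted p = 0.590 by limma and Benjamini-Hochberg), and 4.51% of all genes tested had a log2 fold change as low or lower. The interval on the fold scale was 0.45 to 1.08. The log2 fold change was -0.29 without ko replicate 1 and -0.25 without het replicate 1, against -0.75 and -0.79 without the other library of each group.

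Sun1, the inner membrane partner of KASH5, varied little. It stood at 15.8 and 17.8 FPKM in ko and at 18.9 and 17.1 FPKM in het, and the groups overlapped. With 1577 to 2337 reads a library it was among the more precisely counted members. Its log2 fold change was -0.10 (standard error 0.10, adjusted p = 0.801 by limma and Benjamini-Hochberg), within an interval on the fold scale of 0.78 to 1.13.

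The kinase and its activator differed in spread. Spdya, the activator, stood at 15.0 and 17.0 FPKM in ko and at 22.3 and 14.7 FPKM in het. The het libraries thus enclosed both ko libraries, and het replicate 1 was again the highest. The log2 fold change was -0.17 (standard error 0.21, adjusted p = 0.822 by limma and Benjamini-Hochberg), with an interval on the fold scale of 0.61 to 1.29, and it turned to 0.11 without het replicate 1. Cdk2, which also acts in mitotic cells, stood at 26.3 and 23.9 FPKM in ko and at 23.4 and 24.0 FPKM in het. On the log2 scale its 4 libraries lay closest together of the 7 members, on 1814 to 3180 reads, and the groups overlapped. Its log2 fold change was 0.08 (standard error 0.09, adjusted p = 0.803 by limma and Benjamini-Hochberg), and the interval on the fold scale ran from 0.90 to 1.24.

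**Figure D2:**
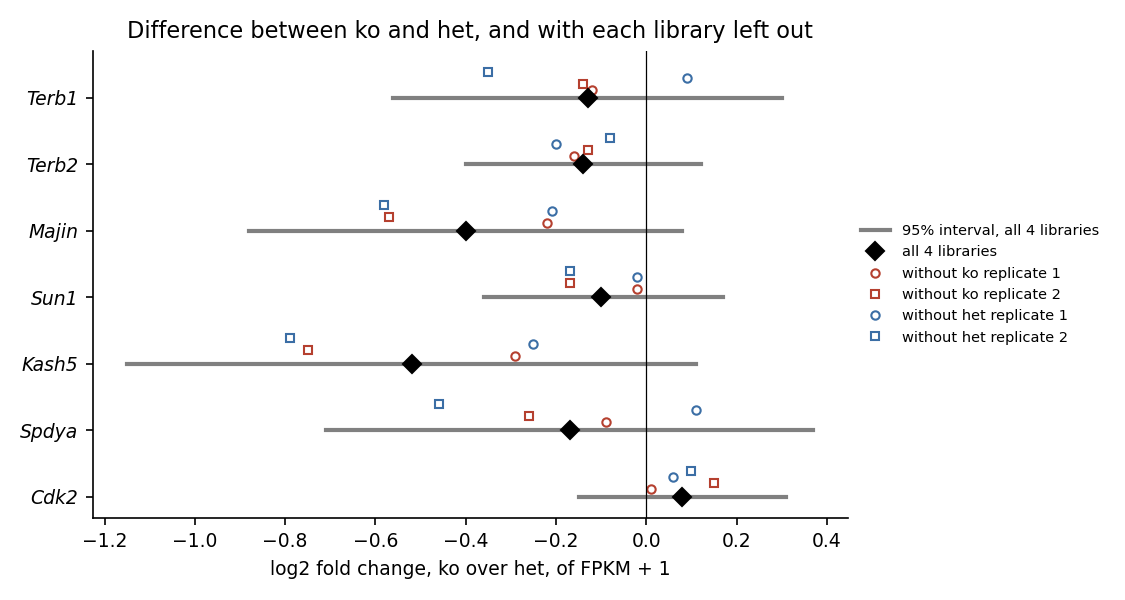
Log2 fold change of FPKM + 1, ko over het (horizontal axis), for each gene. Black diamonds use all 4 libraries, grey lines are 95% intervals from limma and open symbols leave out 1 library; every grey line crosses 0, and leaving out het replicate 1 moves Kash5 to -0.25 and puts Terb1 and Spdya above 0.

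The intervals set what this comparison could resolve. Changes of more than 1.13 times upward or below 0.78 times downward lay outside the interval for Sun1, and the interval for Cdk2 excluded a ko level under 0.90 times that of het. Those of Kash5 and Majin included ko levels of 0.45 and 0.55 times that of het as well as no difference. With 2 libraries in each group, an exact permutation test of a single gene cannot go below a two-sided p of 0.333.

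The order of the levels was similar in both groups. In ko the means ran from Cdk2 at 25.1 FPKM through Kash5 at 17.9, Sun1 at 16.8, Spdya at 16.0, Majin at 11.4 and Terb1 at 7.20 to Terb2 at 5.37 FPKM. The ranges of Kash5, Sun1 and Spdya overlapped between neighbours in that order, and all other neighbours were apart. In het the order was Kash5 at 26.3 FPKM, Cdk2 at 23.7, Spdya at 18.5, Sun1 at 18.0, Majin at 15.4, Terb1 at 8.07 and Terb2 at 6.04 FPKM. There the ranges overlapped between Kash5 and Cdk2, between Spdya and Sun1 and between Sun1 and Majin. Cdk2 lay at or above 87.0% of all genes tested in mean level over the 4 libraries, Kash5 at or above 84.8% and Terb2 at or above 45.5%.

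Across libraries the members did not move as 1 block. Het replicate 1 was the highest library for 5 of the 7 (Terb1, Majin, Sun1, Kash5 and Spdya), as for 26.5% of all genes tested, whereas Terb2 was highest in het replicate 2 and Cdk2 in ko replicate 1. The gap between the het libraries, replicate 1 minus replicate 2 on the log2(FPKM + 1) scale, was 0.57 for Spdya, 0.54 for Kash5, 0.43 for Terb1 and 0.37 for Majin. It was 0.14 for Sun1, -0.04 for Cdk2 and -0.12 for Terb2. The same gap between the ko libraries was -0.45 for Kash5 and -0.35 for Majin, and between -0.17 and 0.13 for the other 5. For Terb1, Spdya and Sun1 the het libraries thus differed more from each other than the groups did, and for Kash5 the gap of 0.54 was about as large as the difference of -0.52 between groups.

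**Figure D3:**
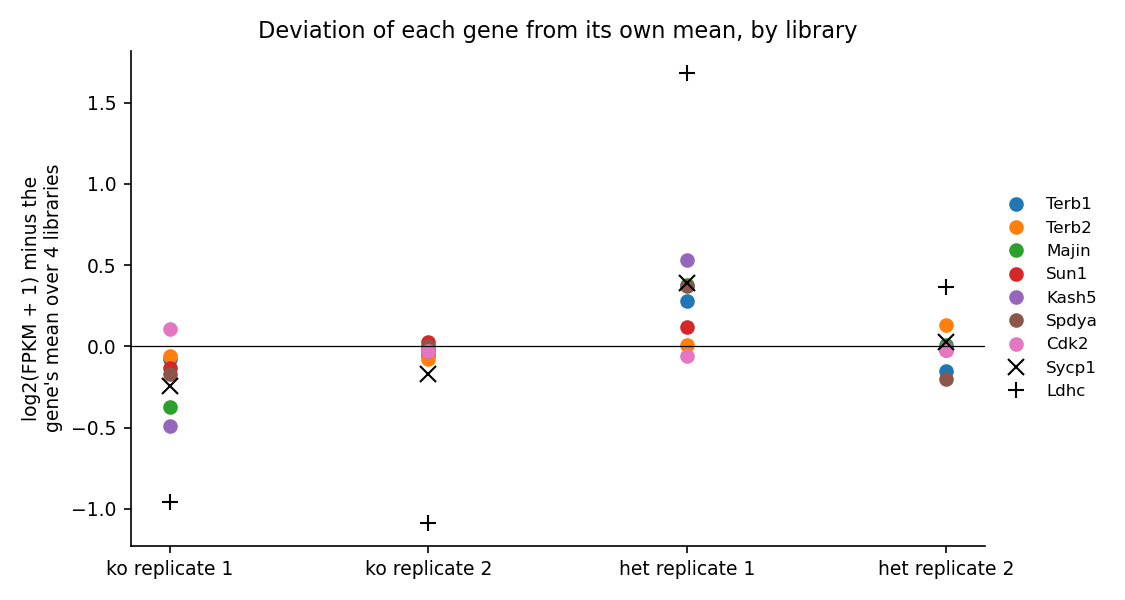
Deviation of log2(FPKM + 1) from each gene's mean over the 4 libraries (vertical axis), by library. Kash5 ranges from -0.49 in ko replicate 1 to 0.53 in het replicate 1, Cdk2 and Terb2 stay within 0.13 of 0, and the synaptonemal gene Sycp1 and the pachytene gene Ldhc are shown for comparison.

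Ratios within a library do not depend on how libraries were scaled. Majin stood at 1.83 and 2.43 times the level of Terb2 in ko and at 3.03 and 2.10 times in het, and Terb1 at 1.31 and 1.37 times Terb2 in ko and 1.64 and 1.06 times in het. Both ratios overlapped between the groups. Majin over Terb1 was 1.39 and 1.78 in ko and 1.85 and 1.98 in het, without overlap. Kash5 and Majin, which code for membrane proteins of different complexes, kept a narrow ratio of 1.51 and 1.61 in ko and 1.79 and 1.60 in het. The largest of these was 1.19 times the smallest. Kash5 over Sun1 was 0.943 and 1.17 in ko and 1.65 and 1.24 in het, so the ko libraries lay below the het libraries. The share of all gene pairs whose ratios separate the groups was not measured. With 2 libraries a group, no such separation can go below a two-sided p of 0.333 in an exact permutation test. Spdya over Cdk2 was 0.570 and 0.708 in ko and 0.953 and 0.613 in het, and the groups overlapped. Cdk2 kept close to its relative Cdk1, at 2.29 and 1.98 times in ko and 2.00 and 2.10 times in het.

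**Figure D4:**
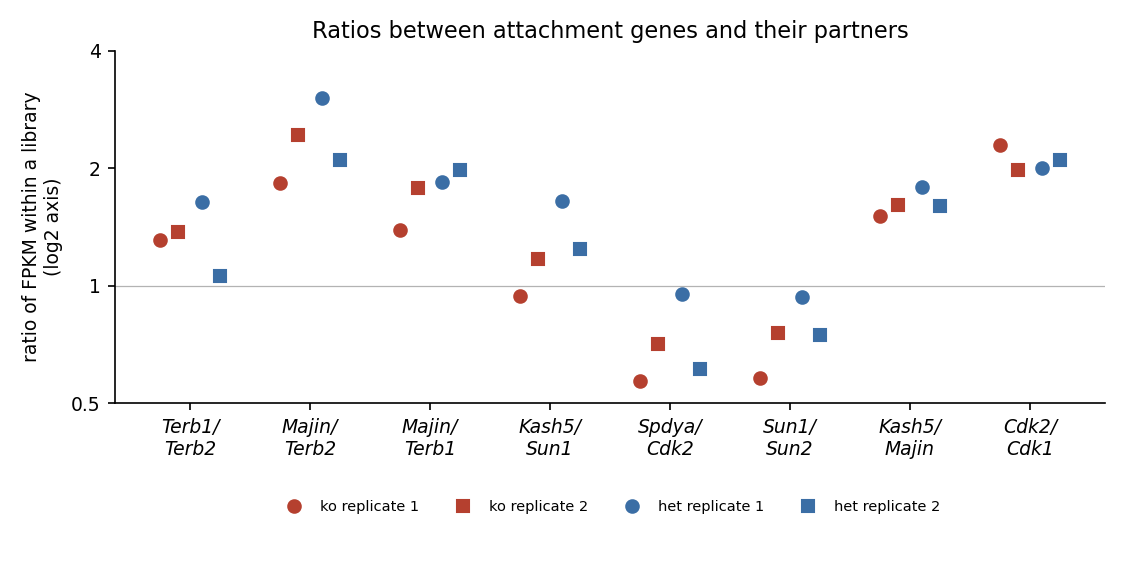
Ratio of FPKM between pairs of genes within each library, on a log2 axis, ko left of het. Kash5 over Majin and Cdk2 over Cdk1 have the narrowest spread, and Kash5 over Sun1 runs from 0.943 in ko replicate 1 to 1.65 in het replicate 1.

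Markers of pachytene spermatocytes also differed between the libraries. Of 8 pachytene markers 7 were tested, all 7 had a log2 fold change below 0 and the median was -0.94. Both ko libraries had a lower summed level than both het libraries, as given above, and no marker was at 0 in every library. Between the ko libraries the sums were level, but single markers differed in both directions. The log2 differences, ko replicate 1 minus ko replicate 2, were -0.37 for Piwil1 and 0.13 for Ldhc. Majin and Kash5 were lower in ko replicate 1 than in ko replicate 2 (log2 differences of -0.35 and -0.45). Limma on FPKM called 0 of the markers, with 3 lower before adjustment (p under 0.05), where 4.41% of all genes tested were lower at that level. With voom on whole reads 3 were called, namely Ldhc, Piwil1 and Acr, where voom called 1.42% of all genes tested and 0 of the 7 members. Ldhc, the lactate dehydrogenase of spermatocytes and sperm, was at 11.7 and 10.6 FPKM in ko and at 78.0 and 30.7 FPKM in het. Piwil1, a PIWI protein of pachytene spermatocytes, stood at 3.65 and 5.01 FPKM in ko and at 28.1 and 14.3 FPKM in het. Without het replicate 1 the median of the list was -0.37, and without het replicate 2 it was -1.51. Kash5 did not follow Ldhc in proportion: the ratio of their levels was 1.27 and 1.96 in ko and 0.401 and 0.691 in het. Ldhc had the lowest fold change of the list, and its choice was made with its values known. Over the 7 tested markers log2 fold changes ran from -2.04 to -0.11, a range that holds the -0.52 of Kash5. No other marker was set against Kash5 in this way. The part of stage composition in the differences of Kash5 and Majin was not tested.

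Genes of the chromosome axis and of synapsis had a median log2 fold change of -0.16 over 14 tested genes. Limma called 0 of the 14. Leaving out het replicate 1 gave a median of -0.07, and leaving out het replicate 2 gave -0.26. Their summed levels were 744 and 785 FPKM in ko and 962 and 784 FPKM in het. Sycp1, the transverse filament of the synaptonemal complex, stood at 104 and 109.5 FPKM in ko and 162 and 126 FPKM in het (log2 fold change -0.42, adjusted p = 0.520 by limma and Benjamini-Hochberg), the lowest fold change of the list. Without het replicate 1 it was -0.24. Hormad1, an axis protein, stood at 68.7 and 74.6 FPKM in ko and 109.8 and 81.5 FPKM in het. Rec8, a meiotic cohesin subunit, lay the other way, at 14.9 and 15.0 FPKM in ko and 12.5 and 13.1 FPKM in het. Whether Majin and Kash5 separated the groups relative to the axis depended on the gene they were set against, and the choice of Sycp1 and Rec8 was made with their values known. Majin over Sycp1 was 0.0953 and 0.118 in ko and 0.108 and 0.106 in het. Kash5 over Sycp1 was 0.143 and 0.190 in ko and 0.193 and 0.169 in het. Both of these ratios overlapped between the groups. Majin over Rec8 was 0.663 and 0.861 in ko and 1.39 and 1.01 in het, and Kash5 over Rec8 was 0.999 and 1.39 in ko and 2.50 and 1.62 in het. Against Rec8, both ko libraries lay below both het libraries for either gene.

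None of the partner genes of the attachment machinery passed the test. Over 8 lists of partners, 82 of 89 genes were tested, and limma on FPKM and voom on whole reads each called 0. At an unadjusted p under 0.05, limma had 1 higher (Rec8) and 2 lower (Sycp1 and Spdye4b), where 4.90% of all genes tested were higher and 4.41% lower at that level.

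On the telomere side, the shelterin and CST genes, which cap chromosome ends, had a median log2 fold change of 0.00 over 10 genes. Terf1 codes for TRF1, the shelterin protein that TERB1 binds. It stood at 6.29 and 6.25 FPKM in ko and 8.78 and 7.02 FPKM in het (log2 fold change -0.28, standard error 0.13, adjusted p = 0.577 by limma and Benjamini-Hochberg). Leaving out het replicate 1 gave -0.14, and leaving out het replicate 2 gave -0.43. Acd, the shelterin subunit TPP1, stood at 6.70 and 6.78 FPKM in ko and 6.11 and 6.22 FPKM in het, and the CST gene Ten1 at 6.40 and 5.33 FPKM in ko and 5.06 and 4.80 FPKM in het. The 7 genes of telomerase and the telomere helicase had a median of 0.04. Among them the telomerase subunit Nhp2 stood at 71.3 and 59.9 FPKM in ko and 54.7 and 58.3 FPKM in het, the telomerase trafficking gene Wrap53 at 9.18 and 10.0 FPKM in ko and 8.98 and 7.58 FPKM in het, and dyskerin, Dkc1, at 13.4 and 11.7 FPKM in ko and 15.0 and 13.5 FPKM in het. Limma called none of these.

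On the envelope side, 5 of 8 other SUN and KASH genes were tested, with a median of 0.05. Sun2, the widely expressed relative of Sun1, stood at 27.3 and 23.4 FPKM in ko and 20.2 and 22.8 FPKM in het. It was above Sun1 in every library, with Sun1 over Sun2 at 0.581 and 0.759 in ko and 0.937 and 0.749 in het. Syne2, a KASH gene of many tissues, stood at 16.6 and 21.1 FPKM in ko and 15.8 and 19.4 FPKM in het, and Syne4 at 1.71 and 1.61 FPKM in ko and 1.74 and 1.40 FPKM in het. Sun3, a SUN gene of spermatids, was under the filter, at 0.475 and 0.317 FPKM in ko and 0.631 and 0.380 FPKM in het. The 8 lamina and inner membrane genes had a median of -0.04. In that list Banf1, a chromatin-bridging factor, stood at 70.2 and 65.7 FPKM in ko and 59.9 and 56.5 FPKM in het, Lmnb2 at 8.17 and 7.99 FPKM in ko and 6.63 and 7.39 FPKM in het, and emerin, Emd, at 12.9 and 13.9 FPKM in ko and 11.3 and 12.5 FPKM in het.

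The 18 genes of cytoplasmic dynein and dynactin, the motor that KASH5 recruits, had a median of 0.00. The heavy chain Dync1h1, a choice made with its values known, was at 40.6 and 47.0 FPKM in ko and 43.2 and 46.1 FPKM in het. The intermediate chain Dync1i2 stood at 15.7 and 15.0 FPKM in ko and 20.0 and 16.0 FPKM in het, and Pafah1b1, the dynein regulator LIS1, at 34.7 and 33.2 FPKM in ko and 38.3 and 36.3 FPKM in het. Dynlrb2, a light chain of the roadblock family, had the lowest fold change of the list, -0.54 (standard error 0.25, adjusted p = 0.586 by limma and Benjamini-Hochberg), on only 18 and 7 reads in ko and 21 and 13 reads in het. It ran from -0.80 without ko replicate 1 to -0.28 without ko replicate 2.

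Among the cyclins, inhibitors and other regulators of the CDKs, 19 of 20 were tested, with a median of -0.01. Ccne2, a cyclin partner of CDK2, stood at 24.4 and 26.5 FPKM in ko and 30.3 and 28.7 FPKM in het. Cks1b, a CDK-binding subunit, stood at 31.0 and 24.8 FPKM in ko and 22.3 FPKM in both het libraries, and the phosphatase Cdc25b at 5.84 and 5.54 FPKM in ko and 4.56 and 4.70 FPKM in het. The germ cell cyclin Ccna1 was under the filter, with 17 and 7 reads in ko and 4 and 5 in het. Of the other Speedy genes only Spdye4b passed the filter, at 1.38 and 1.22 FPKM in ko and 3.50 and 2.11 FPKM in het, on 68 and 45 reads in ko and 130 and 65 in het. Its log2 fold change of -0.70 (standard error 0.23) did not pass (adjusted p = 0.504 by limma and Benjamini-Hochberg), and it was -0.44 without het replicate 1. Genes of this family are similar in sequence, and the split of reads among them is uncertain.

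**Figure D5:**
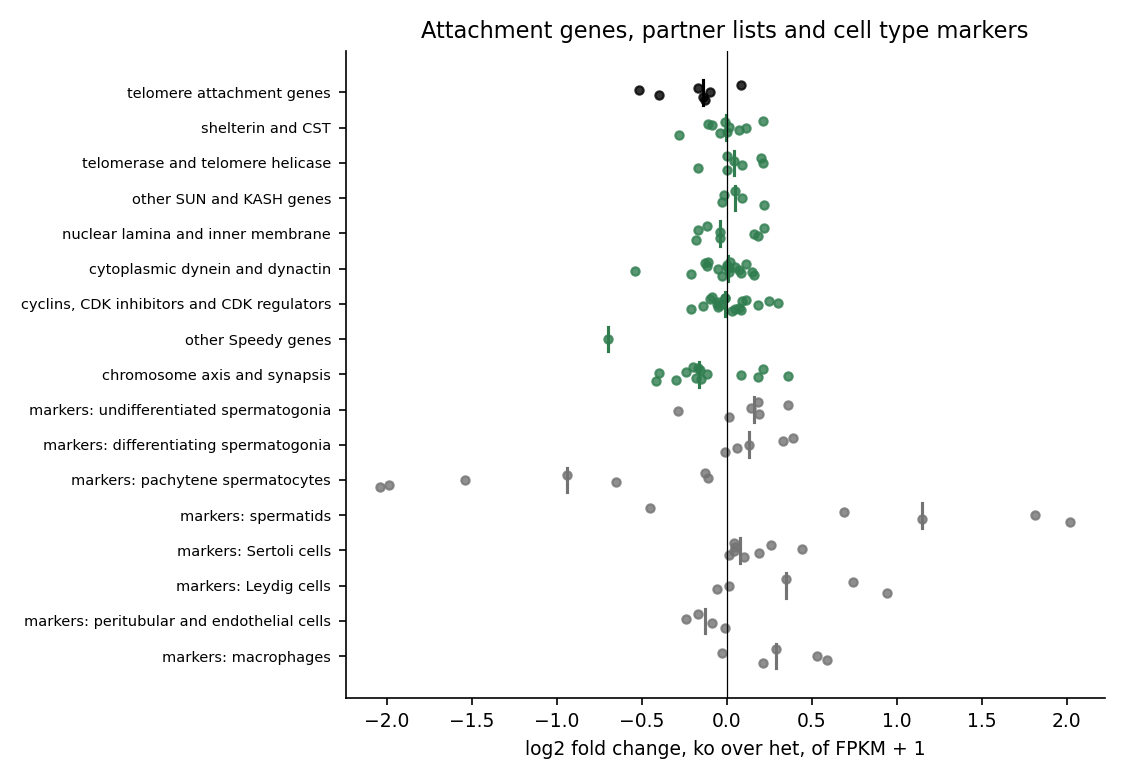
Log2 fold change of FPKM + 1, ko over het (horizontal axis), of every tested gene in each list, 1 dot a gene, with the list median as a vertical bar. The attachment genes (black) have a median of -0.14, near that of the axis and synapsis genes (-0.16), while pachytene markers have a median of -0.94 and reach -2.04.

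Markers of the other cells of the testis were measured in the same libraries. Of the markers for undifferentiated and differentiating spermatogonia, 6 of 7 and 5 of 5 were tested, with medians of 0.16 and 0.13. For the undifferentiated list the median was 0.01 when het replicate 1 was left out and 0.31 when het replicate 2 was left out. Summed levels were 159 and 139 FPKM in ko and 109 and 137 FPKM in het for the undifferentiated list, and 147 and 129.7 FPKM in ko and 120.0 and 125 FPKM in het for the differentiating list. Of the undifferentiated markers, the ubiquitin hydrolase Uchl1 was measured at 126 and 108 FPKM in ko and 79.4 and 103 FPKM in het, and Id4, an inhibitor of DNA binding, at 6.11 and 6.35 FPKM in ko and 9.18 and 6.69 FPKM in het. Sohlh1, a transcription factor of spermatogonia, was measured at 25.3 and 20.9 FPKM in ko and 16.5 and 19.8 FPKM in het. Sohlh2, its partner in differentiating spermatogonia, stood at 24.9 and 25.0 FPKM in ko and 20.6 and 17.1 FPKM in het. The 8 Sertoli markers had a median of 0.07 and summed levels of 1176 and 984 FPKM in ko against 795 and 937 FPKM in het. That median ran from 0.04 without het replicate 1 to 0.23 without ko replicate 2. Clusterin, Clu, a secreted Sertoli product, was measured at 657 and 561 FPKM in ko and 398 and 500.0 FPKM in het, and the transcription factor Wt1 at 44.2 and 37.4 FPKM in ko and 33.6 and 37.4 FPKM in het. Medians were 0.35 for Leydig cells (5 genes), -0.13 for peritubular and endothelial cells (4 genes) and 0.29 for macrophages (5 genes). The Leydig median rested on single libraries, at 0.01 without ko replicate 1, 0.06 without het replicate 2 and 0.20 without het replicate 1. The peritubular and endothelial median was -0.08 without ko replicate 2. Summed levels were 191 and 149 FPKM in ko against 146 and 135 FPKM in het for Leydig cells, 209 and 193 FPKM in ko against 215 and 199 FPKM in het for peritubular and endothelial cells, and 39.7 and 32.2 FPKM in ko against 28.1 and 29.3 FPKM in het for macrophages. Star, the cholesterol carrier of steroid synthesis, was measured at 11.2 and 17.4 FPKM in ko and 11.7 and 5.34 FPKM in het, and the Leydig hormone Insl3 at 105 and 64.9 FPKM in ko and 54.7 and 76.1 FPKM in het. Both genes overlapped between the groups. Myh11, the smooth muscle myosin heavy chain, was measured at 34.7 and 33.4 FPKM in ko and 36.0 and 36.7 FPKM in het, and the endothelial cadherin Cdh5 at 7.51 and 7.09 FPKM in ko and 8.52 and 9.02 FPKM in het. Limma and voom called 0 genes in these 6 lists, with 3 higher and 1 lower at an unadjusted limma p under 0.05. Of all genes tested, 4.90% were higher and 4.41% lower at that level. Adgre1, a surface receptor of macrophages, was measured at 4.61 and 3.92 FPKM in ko and 2.36 and 2.64 FPKM in het. Cd68, a lysosomal protein of macrophages, stood at 10.8 and 7.31 FPKM in ko and 5.87 and 5.83 FPKM in het. The spermatid list had a median of 1.15 over 5 tested genes, carried by ko replicate 1, where Tnp1 was at 12.4 FPKM, against 0.785 FPKM in ko replicate 2 and 0.938 and 0 FPKM in het. The acrosomal membrane gene Spaca1 lay the other way, at 2.32 and 1.72 FPKM in ko and 3.68 and 2.58 FPKM in het. Without ko replicate 1 it was the 1 spermatid gene that passed the filter, with a log2 fold change of -0.59.

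The genes whose levels followed the mean profile of the membrane-tethering complex most closely were Ccar1, Kntc1, Pgbd1, Strbp and Tmem117. Likeness was the Euclidean distance, over the 4 libraries, from the mean centred log2(FPKM + 1) profile of Terb1, Terb2 and Majin, among 12198 protein-coding genes. Ccar1, a cell cycle and apoptosis regulator, lay at a distance of 0.009 and Kntc1, a kinetochore protein, at 0.023. Pgbd1, Strbp and Tmem117 lay at 0.025, 0.025 and 0.026. Pgbd1 and Tmem117 were near the filter, at 1.13 to 1.80 FPKM and 1.08 to 1.75 FPKM over the libraries. Their counting intervals were wide, such as 0.898 to 1.41 FPKM for Pgbd1 in ko replicate 1. The complex's own members were farther from their mean, at 0.186 for Terb1, 0.260 for Majin and 0.278 for Terb2, with 1176, 2777 and 3307 other genes nearer. Sun1, outside the complex, was nearer to that mean than any of them, at 0.144, with 538 other genes nearer. Spdya, also outside it, lay at 0.248, nearer than Majin and Terb2, with 2447 other genes nearer.

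Promoter sequence is shown for 4 members that span the range of behaviour: Kash5 with the largest difference, Spdya with the widest gap between het libraries, Terb1 on the chromosome of Kctd19, and Cdk2, the member with a positive log2 fold change. Each run is the 250 bases before the RefSeq start (GRCm38.p6), read 5′ to 3′ on the gene's strand. RefSeq entries matched 5 of the 7 members. Capitals mark matches on either strand to a MYB core (AACNGNC), a core bound by STRA8 and MEIOSIN (CCTCAG) or an E2F core (TTTNNCGC).
Kash5, chr7:45204893-45205142, minus strand: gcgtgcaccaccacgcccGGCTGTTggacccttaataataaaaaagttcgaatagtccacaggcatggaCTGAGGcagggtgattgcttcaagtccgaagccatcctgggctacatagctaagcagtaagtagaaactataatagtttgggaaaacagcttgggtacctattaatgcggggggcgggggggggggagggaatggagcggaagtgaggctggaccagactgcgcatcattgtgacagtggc
Spdya, chr17:71551811-71552060, plus strand: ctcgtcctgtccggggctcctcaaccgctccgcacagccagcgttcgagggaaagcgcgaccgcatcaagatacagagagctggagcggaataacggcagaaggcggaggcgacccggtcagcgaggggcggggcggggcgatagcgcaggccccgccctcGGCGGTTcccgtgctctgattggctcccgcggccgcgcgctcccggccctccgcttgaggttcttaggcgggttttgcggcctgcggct
Terb1, chr8:104509888-104510137, minus strand: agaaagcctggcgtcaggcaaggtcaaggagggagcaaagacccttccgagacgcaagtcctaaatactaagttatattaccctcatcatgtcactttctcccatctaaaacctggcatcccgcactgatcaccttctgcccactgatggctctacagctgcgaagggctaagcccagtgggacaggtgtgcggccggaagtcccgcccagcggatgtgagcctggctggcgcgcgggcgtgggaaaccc
Cdk2, chr10:128705052-128705301, minus strand: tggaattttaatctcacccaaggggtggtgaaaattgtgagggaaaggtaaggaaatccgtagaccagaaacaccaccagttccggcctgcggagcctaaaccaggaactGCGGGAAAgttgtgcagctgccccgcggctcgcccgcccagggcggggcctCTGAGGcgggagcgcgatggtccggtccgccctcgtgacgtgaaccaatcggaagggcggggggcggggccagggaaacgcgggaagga

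The Kash5 window held 1 match to the MYB core and 1 to the STRA8 and MEIOSIN core. The Spdya window held 1 match to the MYB core. The Cdk2 window held 1 match each to the STRA8 and MEIOSIN core and the E2F core, and the Terb1 window held none of these letters. Of 32851 windows of the same length before mouse gene starts, 27.7% held the MYB core, 22.3% the STRA8 and MEIOSIN core and 4.28% the E2F core. The capitals do not overlap each other. A match of this kind is a description of the letters and not a binding site.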

How the data were processed

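Poly(A) RNA from 4 testis libraries was measured, 2 from ko and 2 from het mice at postnatal day 14. Each deposited table holds 1 FPKM value per gene row, per the file headers. The submitters' processing notes list CASAVA 1.9, STAR 2.6.1a, featureCounts and edgeR, without roles, and give GRCm38 as the build. Which annotation was used is not given in the sources used here.

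Members, lists, tests and alternatives were chosen with earlier results of these data known. Symbols were matched to GENCODE M21 for position and exon length (53177 of 55401 rows, 96.0%), with 217 rows of repeated symbols among the unmatched. FPKM times exon length moved in steps of 1 read, and 99.2% or more of the values up to 25 reads in each library were whole within 0.02, which gave the reads and depths. Limma 3.58.1 (R 4.3.3) compared the genotypes on log2(FPKM + 1) with an intensity trend, in genes whose mean over the libraries was 1 FPKM or more. Folds on that scale understate changes of low genes. Adjustment over these genes was by Benjamini-Hochberg. Alternatives were a pseudocount of 0.1, no filter, a replicate block, each library left out, voom on the whole reads (trimmed-mean scaling), median-of-ratios scaling, quantile normalization, protein-coding genes only and an adjusted p under 0.01. The code was tested on simulated reads. PCR duplicates are not marked, so intervals cover counting error only. P-values measure the spread between these libraries, which are labelled biological replicates with no animal named.

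Named were all members, from each list any called gene or else up to 3 partner genes (2 marker genes) with the smallest p, the 5 genes nearest the complex, and Kctd19. Further genes named were Acr, called by voom, Sun3 and Ccna1, under the filter, Cdk1, as a ratio, Prm1, at 0 in a library, and Dync1h1, chosen after their values were seen.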

Additional observations from a re-analysis of the deposited data

How the results depend on the processing

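No member was called under any of 11 alternatives, and the lowest adjusted p of a member was 0.175 (Kash5, limma voom on whole reads with the Benjamini-Hochberg adjustment). The direction of all 7 was kept, except without het replicate 1. Over the settings that leave out 1 library, log2 fold changes ran from -0.35 to 0.09 for Terb1, -0.46 to 0.11 for Spdya, -0.20 to -0.08 for Terb2, -0.58 to -0.21 for Majin, -0.17 to -0.02 for Sun1, -0.79 to -0.25 for Kash5 and 0.01 to 0.15 for Cdk2. Of the partner genes named for the smallest p in their list, Syne2 (-0.08 to 0.26 over these settings) and Syne4 (-0.04 to 0.15) changed sign. Other partner genes were not followed singly over these settings. The count over all genes was less stable. From 37 genes called higher in ko and 2 lower, it went to 0 and 0 without any 1 library, 0 and 0 with no filter (1434 and 1206 at an unadjusted p under 0.05), 0 and 0 at an adjusted p under 0.01, 134 and 113 with voom, and 94 and 14 with protein-coding genes only, where the pachytene gene Piwil1 was called. The cause was not tested. With the replicate number as a replicate block it was 15 and 0, and 0 members were called. The deviations of same-numbered libraries correlated at -0.0342 across genes, and the labels do not say that a number marks a shared litter or day. Depth limits Terb2 most, at 163 to 223 reads a library.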
